A study of Macaca mulatta with 4 samples.

Results

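Transcription factors of the rhombic lip lineage were followed across the cells of the rhesus macaque cerebellum at late gestation. The set held 10 named genes, ATOH1, PAX6, BARHL1, NEUROD1, MEIS1, MEIS2, ZIC1, ZIC2, EOMES and LMX1A, taken by their symbols from the gene list of the count matrices. Of these, 8 had a row among the 30807 genes listed. BARHL1 and EOMES were not analysed here. The files give the gene identifiers ENSMMUG00000002367 for ATOH1, ENSMMUG00000016810 for PAX6, ENSMMUG00000008296 for NEUROD1, ENSMMUG00000011216 for MEIS1, ENSMMUG00000006840 for MEIS2, ENSMMUG00000004742 for ZIC1, ENSMMUG00000014822 for ZIC2 and ENSMMUG00000006300 for LMX1A, counted on the rhesus genome build Mmul_8.0.1 without coordinates.

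The rhombic lip is the germinal zone at the edge of the hindbrain roof that gives rise to the glutamatergic neurons of the cerebellum, which are granule cells, unipolar brush cells and the excitatory neurons of the cerebellar nuclei. Granule cell precursors divide in the external granule layer, leave the cell cycle, and migrate along Bergmann glia to the internal granule layer, where they mature. ATOH1 is the proneural factor that specifies rhombic lip progenitors and keeps granule precursors dividing, NEUROD1 acts at cell cycle exit and differentiation, PAX6, MEIS1, MEIS2, ZIC1 and ZIC2 are homeodomain or zinc finger factors of the precursors and their progeny, and LMX1A is a LIM homeodomain factor of the roof plate, choroid plexus and unipolar brush cells.

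Nuclei came from frozen cerebellum of 2 control fetuses, which had no intervention, and of 2 fetuses exposed to 1 mg of intra-amniotic lipopolysaccharide (LPS), a bacterial endotoxin used to model chorioamnionitis, and delivered 5 days later. Each fetus gave 1 library, so the groups had 2 libraries each. The control female and the control male were at 130 days of gestation, the LPS-exposed male at 133 days and the LPS-exposed female at 131 days. The counts were unique molecular identifiers (UMIs, 1 per captured RNA molecule) on exons and introns of nuclear RNA, and levels are given as CPM, the UMIs of a gene scaled to a fixed total of UMIs over all nuclei of a class in a library.

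Nuclei numbered 32565 after barcodes under 500 genes or above 5% mitochondrial UMIs were dropped, with 6890 to 9250 in a library. Libraries held 34282015 to 61665690 UMIs, and the median nucleus held 4508 and 4063 UMIs in the control and LPS-exposed females and 1882 and 2308.5 in the males. Sex and depth therefore cannot be told apart here. The LPS-exposed male stood apart, with 38.7% of its UMIs in nuclei against 58.7 to 73.9% in the other libraries, and it held 1482 of the 2751 mature granule nuclei. Between 16 and 21 cell barcodes were shared by any pair of libraries, at most 0.276% of the smaller one, and 400 to 1016 nuclei per library were called doublets. These were not removed one by one, but clusters with over 50% doublets were given no class. In all 3946 nuclei had no class and entered no class level or test, with 2191 of them in the LPS-exposed male (28.1% of its nuclei, median 802 UMIs) and 431 to 787 in each other library. Class names stand for clusters that resembled a class by its marker genes ("granule-like", "unipolar brush-like" and so on). None of the 8 genes was used to build or name a cluster.

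The named granule stages held 1497 nuclei of proliferating precursors, 2982 of committing, 3652 of migrating, 3709 of maturing and 2751 of mature granule cells. A further 3 granule clusters matched no stage and are called by number (clusters 0, 5 and 9), and the whole granule lineage held 22356 nuclei, 68.7% of all. A cluster of 74 nuclei was unipolar brush-like, with 7 of its 10 leading genes among the markers of that class, including SAMD3, RPH3A, RSPO2, SHISA9, PEX5L and TAFA2. These nuclei lay inside the astrocyte-like cluster at first and separated when it was clustered again, and 4.05% of them were called doublets. No cluster resembled the excitatory neurons of the cerebellar nuclei.

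ATOH1 UMIs were few and lay mainly at the start of the granule lineage. Of 32565 nuclei, 89 held an ATOH1 UMI, and 59 of these were proliferating precursors (22) or committing granule cells (37). In proliferating precursors ATOH1 was at 4.76 CPM in the control female, 4.75 CPM in the LPS-exposed female and 0 in both males. In committing granule cells it was at 5.35 and 2.56 CPM in the control female and male and at 4.95 and 2.12 CPM in the LPS-exposed female and male. The committing level was the higher in 4 of 4 fetuses (means 3.74 and 2.38 CPM), from few UMIs, and this difference was not tested. Both females lay above both males at each of these stages. Free RNA was read in empty droplets, the barcodes of fewer UMIs than the nuclei. Their ATOH1 split likewise, at 2.88 and 3.85 CPM in the control and LPS-exposed females and 1.18 and 0 CPM in the males. These values rested on 8, 6, 2 and 0 UMIs. Barcodes with at most 100 UMIs had 0.684 and 0.802 CPM against 0 and 0. That was 1 UMI in each female library, too few to show a split. By the share of free RNA estimated for each class, the empty droplet profile would give 2.14 of the 22 UMIs counted in proliferating precursors and 3.02 of the 38 in committing cells, and the other profile 0.438 and 0.620. In later stages, the 5 UMIs of migrating cells and 2 of maturing cells stood beside 3.04 and 3.09 by the droplet profile and 0.622 and 0.632 by the other. By the droplet profile they cannot be told from free RNA. By the other profile both counts lay above it, and the difference was not tested. The 0 UMIs in the males allowed up to 2.64 CPM in the control and 3.08 CPM in the LPS-exposed library, counting error only, and these limits include the levels of the committing cells of the same fetuses. No UMI of ATOH1 was found in 2751 mature granule nuclei, where the limits were 0.609 to 2.79 CPM. Precursors in S phase and in mitosis had 2.43 and 2.27 CPM (means over 4 fetuses, sub-clusters of 1072 and 425 nuclei).

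PAX6, a paired-box homeodomain factor of granule precursors and granule cells, had its highest mean level in migrating granule cells and, of the named stages, its lowest in mature ones. Migrating cells had 346 CPM in the control female, 786 in the control male, 327 in the LPS-exposed female and 639 in the LPS-exposed male. Mature cells had 149, 314, 166 and 309 CPM in the same order. In each fetus the migrating level was above the mature level, and at both stages the males lay above the females. From migrating to maturing cells the log2 difference was −0.56 ± 0.09 (SD, n = 4 fetuses) and from maturing to mature cells −0.58 ± 0.16, lower in 4 of 4 fetuses at each step. Committing cells (473 ± 209 CPM) and cluster 5 (471 ± 193 CPM) were not separable in level, with committing cells above in 2 of 4 fetuses.

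NEUROD1, a basic helix-loop-helix factor of granule cell differentiation, marked the migrating stage. Committing cells had 211 CPM in the control female, 63.3 in the control male, 177 in the LPS-exposed female and 116 in the LPS-exposed male. Migrating cells had 463, 231, 518 and 231 CPM in the same order. The migrating level was above the committing level in every fetus, by 0.99 to 1.85 on the log2 scale (mean 1.38 ± 0.39), and both females lay above both males. In maturing cells it was at 176 ± 80.2 CPM, a log2 difference of −1.05 ± 0.20 from migrating cells and lower in 4 of 4 fetuses. A NEUROD1 UMI was found in 77.1 and 78.1% of migrating nuclei of the control and LPS-exposed females and in 29.5 and 39.9% of those of the males, at median depths of 3614.5, 3383, 1531 and 2359 UMIs. In oligodendrocyte-like nuclei, which should lack the gene, the shares were 25.2, 36.7, 6.90 and 26.4% at 5907, 5905, 2442 and 3849 UMIs. With every nucleus thinned to 1000 UMIs, which left out 3116 shallower nuclei (385, 163, 780 and 1788 in the control female, LPS-exposed female, control male and LPS-exposed male), migrating nuclei held it in 38.5, 40.1, 20.9 and 21.5% and oligodendrocyte-like nuclei in 5.26, 2.53, 1.20 and 8.11%.

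**Figure D1:**
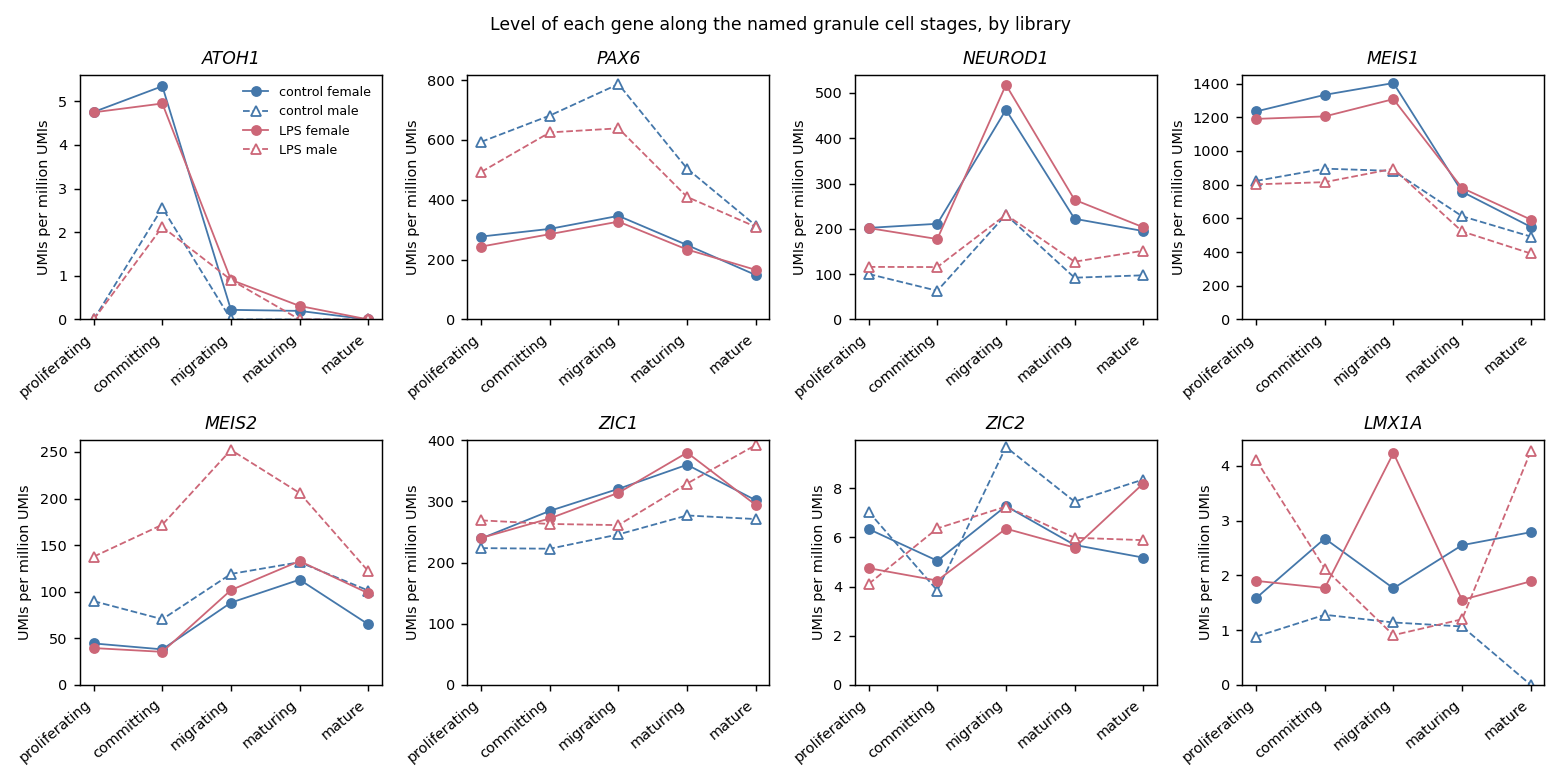
Level of each gene in CPM (vertical axis, from 0) along the 5 named granule stages (horizontal axis), with 1 line per library, blue for control and red for LPS-exposed, filled circles for females and open triangles for males. ATOH1 was near 0 from the migrating stage on, NEUROD1 peaked in migrating cells, where the females had 463 and 518 and both males 231, and the PAX6 lines of the males ran above those of the females.

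MEIS1, a TALE-class homeodomain factor and partner of PBX proteins, was higher in precursors than in mature cells. Its level was 1012 ± 232 CPM in proliferating precursors and 1122 ± 273 CPM in migrating cells, and then 668 ± 122 CPM in maturing and 507 ± 87.0 CPM in mature cells. From mature cells to proliferating precursors the log2 difference was 1.17 in the control female, 0.74 in the control male, 1.00 in the LPS-exposed female and 1.03 in the LPS-exposed male. The difference was positive in 4 of 4 fetuses, with a mean of 0.99 ± 0.18.

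MEIS2, its close relative, was higher in migrating than in committing cells. Its level was 77.8 ± 45.9 CPM in proliferating precursors, 78.9 ± 64.0 CPM in committing cells and 140 ± 75.7 CPM in migrating cells. Migrating cells lay above committing cells by 1.19, 0.75, 1.50 and 0.55 on the log2 scale in the control female, control male, LPS-exposed female and LPS-exposed male. Mature cells were at 96.6 ± 23.6 CPM, and proliferating precursors lay below them in 3 of 4 fetuses and above them in the LPS-exposed male (138 against 122 CPM). The highest mean of the granule lineage was in cluster 5, with 212 and 210 CPM in the control female and male and 204 and 322 CPM in the LPS-exposed female and male. This cluster was led by IL20RB, KIAA1217, FRMD4B and ERBB4 and matched no stage list.

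ZIC1 and ZIC2, zinc finger factors of the dorsal neural tube needed for cerebellar growth, were followed over the same stages. ZIC1 was at 243 ± 18.9 CPM in proliferating precursors and 315 ± 53.2 CPM in mature cells, and the precursors were lower in 4 of 4 fetuses (log2 −0.36 ± 0.12). ZIC2 was sparse, with a UMI in 546 nuclei, of which 439 (80.4%) were of the granule lineage, a class that held 68.7% of all nuclei. In the lineage 447 ZIC2 UMIs were counted, where free RNA would give 72.6 by the profile of barcodes with at most 100 UMIs and 82.7 by that of empty droplets, while in oligodendrocyte-like nuclei 3 were counted where these profiles would give 3.07 and 3.11. Its level was between 4.87 and 7.64 CPM on average at each named stage, and 6.96 CPM or less in the lineage as a whole in each library. Migrating cells lay above committing cells in 4 of 4 fetuses (log2 0.56 ± 0.41).

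By the rule that a step counts when a gene differed at least 2-fold in the same direction in all 4 fetuses, none of the members passed in any of the 5 stage contrasts or between mitotic and S phase precursors. Of 6 members with enough UMIs, 0 passed between proliferating precursors and mature cells, where 11.2% of all genes were higher and 6.31% lower in precursors. Between committing cells and precursors 0 of 7 passed (0.206% of all genes higher, 2.61% lower). Between migrating and committing cells 0 of 6 passed (1.66 and 5.91%), where NEUROD1 fell just short at 0.99 in the LPS-exposed male. Between maturing and migrating cells 0 of 6 passed (4.52 and 3.94%), between mature and maturing cells 0 of 7 (2.05 and 0.527%), and between mitotic and S phase precursors 0 of 5 (1.27 and 1.05%).

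Genes of the same families and of neighbouring steps of the lineage were counted by the same rule, and of 32 such genes 27 had a row. Between precursors and mature cells 5 of 20 measured were higher in precursors and 2 lower. The higher ones included GLI2, an effector of Sonic hedgehog signalling (log2 6.10 ± 0.80), HES6 (4.28 ± 0.07), which also served as a marker in naming, the neurogenic zinc finger factor INSM1 (1.81 ± 0.75) and SOX11 (1.56 ± 0.44). The lower ones were ETV1 (−3.25 ± 0.56), an ETS factor of maturing granule cells, and NEUROD2 (−1.85 ± 0.30). Between migrating and committing cells NHLH1 (1.37 ± 0.15) and NHLH2 (1.65 ± 0.29), helix-loop-helix factors of early postmitotic neurons, were higher, and GLI2 (−2.16 ± 0.26) and HES6 (−1.18 ± 0.03) lower, of 21. Between maturing and migrating cells 1 of 21 was higher (NEUROD2, 1.83 ± 0.36) and 6 were lower, and ETV1 was the 1 of 19 that was higher in mature than in maturing cells (2.22 ± 0.47). These genes were named after their values were seen. Their median log2 difference between precursors and mature cells was 1.02 over the 20 measured, against −0.17 over the 6 members and 0.26 over all genes.

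LMX1A stood apart from the other members. In unipolar brush-like nuclei it was at 814 CPM in the control female, 556 in the control male, 1130 in the LPS-exposed female and 908 in the LPS-exposed male. In the granule lineage it was at 2.10, 0.671, 2.26 and 2.85 CPM in the same order. The log2 difference was 7.88 to 8.44 in every fetus (mean 8.19 ± 0.27), although the cluster was formed without this gene. Of the 74 unipolar brush-like nuclei 67 (90.5%) held an LMX1A UMI, against 148 of 22356 (0.662%) of the granule lineage, at median depths of 5619.5 and 3265.5 UMIs. Thinned to 1000 UMIs, the share was 33.3 to 61.9% in the unipolar brush-like nuclei of a library and at most 0.278% in the granule lineage. Nuclei with at least 3 LMX1A UMIs numbered 61 in all, and 52 of them (85.2%) were in the unipolar brush-like cluster. In Purkinje-like and Golgi-like nuclei 1 UMI each was found, and none in microglia, fibroblasts or endothelial cells.

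The other site of LMX1A was the choroid plexus or ependymal cluster. It held 52.1 CPM in the control female, 218 in the control male, 254 in the LPS-exposed female and 19.0 in the LPS-exposed male, from 2, 3, 21 and 13 nuclei. The values of this cluster therefore rested on 30 UMIs in 39 nuclei and spread over a wide range. Among these nuclei 15 held an LMX1A UMI.

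**Figure D2:**
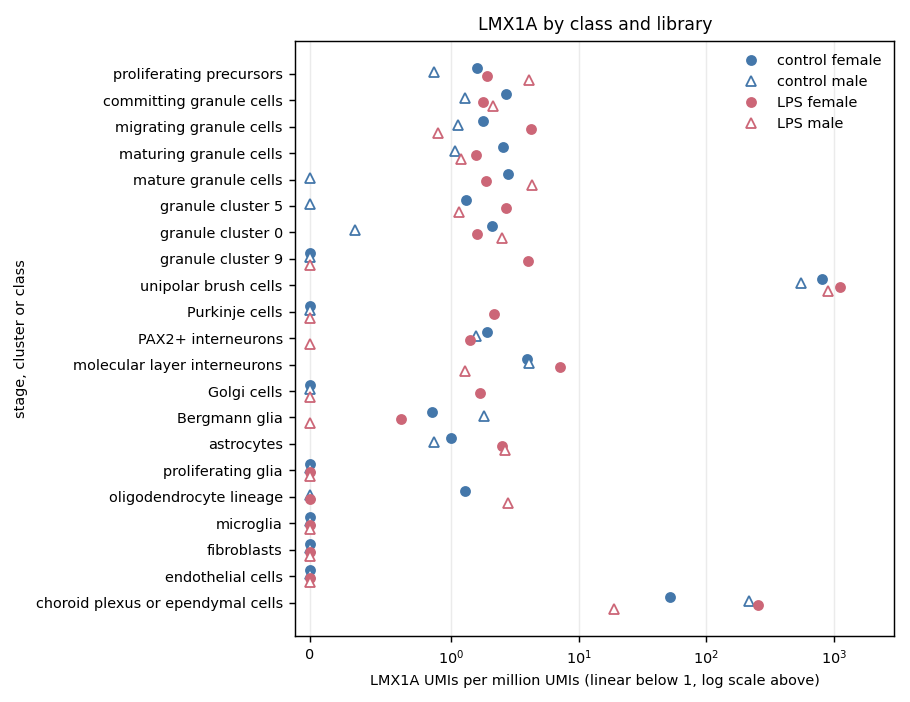
LMX1A in CPM (horizontal axis, linear below 1 and logarithmic above) in each stage, cluster and class (vertical axis), with 1 point per library, blue for control and red for LPS-exposed, filled circles for females and open triangles for males. The unipolar brush-like nuclei lay at 556 to 1130, the choroid plexus or ependymal nuclei at 19.0 to 254, and the granule stages below 5.

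PAX6 and NEUROD1 were lower in unipolar brush-like nuclei than in the granule lineage. Against the granule lineage, 1 of 8 members was at least 2-fold higher in 4 of 4 fetuses (LMX1A, where 1.5% of all genes were higher) and 2 were lower (PAX6 and NEUROD1, where 7.89% of all genes were lower). PAX6 was at 71.5 CPM in the control female, 257 in the control male, 70.6 in the LPS-exposed female and 72.2 in the LPS-exposed male, and the log2 difference from the granule lineage was −1.76 ± 0.57. NEUROD1 was at 116, 42.8, 35.3 and 72.2 CPM, with a difference of −1.57 ± 0.90, from 36 UMIs in all. The PAX6 of the control male came from 6 UMIs in 8 nuclei. After subtraction of free RNA PAX6 was at 32.2 CPM in the control female, 257 in the control male, 38.8 in the LPS-exposed female and 7.28 in the LPS-exposed male. NEUROD1 was then at 38.6, 42.8, 0 and 21.8 CPM in the same order. In the control male free RNA was estimated at 0% of the UMIs of these 8 nuclei, so nothing was subtracted there. Its 257 and 42.8 CPM are the uncorrected levels. ZIC1 was at 231 and 214 CPM in the controls and 336 and 265 CPM in the LPS-exposed fetuses, a log2 difference from the granule lineage of −0.25 ± 0.23. MEIS1 was at 913 and 727 CPM in the controls and 141 and 439 CPM in the LPS-exposed female and male, with a difference of −0.76 ± 1.33 that was positive in 1 of 4 fetuses. The median log2 difference from the granule lineage was −0.82 over all genes and −1.17 over the 8 members, so part of each drop was common to most genes. When each nucleus took its class from its own marker score instead, the difference was −0.56 for PAX6, −0.30 for NEUROD1 and 5.396 for LMX1A. Against astrocyte-like nuclei, among which this cluster first lay, 1 of 6 members was higher by the same rule (LMX1A, 4.76% of all genes) and 0 were lower (10.5%), and ZIC1 was higher in 4 of 4 fetuses by 1.27 ± 0.23. The median over all genes was −0.77 there.

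Several members were also found outside the rhombic lip lineage. MEIS1 had its highest level in Bergmann glia, the radial glia along which granule cells migrate, with 2376 CPM in the control female, 1487 in the control male, 2196 in the LPS-exposed female and 1005 in the LPS-exposed male. It was above the level of proliferating glia (1265 ± 419 CPM) in 4 of 4 fetuses. The MEIS1 of astrocytes (1123 ± 393 CPM) did not separate from that of migrating granule cells, which was lower in 2 of 4 fetuses. Between 80.9 and 99.5% of Bergmann nuclei of a library held a MEIS1 UMI, and after thinning 55.9 to 90.9%. In Purkinje-like nuclei, with median depths of 6737 to 23486 UMIs against 2100 to 5650 in Bergmann glia, the shares were 16.4 to 64.7%, and 5.45 to 23.5% after thinning. MEIS1 in Golgi-like (74.0 ± 26.9 CPM) and Purkinje-like nuclei (59.0 ± 61.2 CPM) was the lowest of the neuronal classes.

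MEIS2 was found in the oligodendrocyte lineage at 130 CPM in the control female, 99.1 in the control male, 186 in the LPS-exposed female and 179 in the LPS-exposed male. Bergmann glia had 13.9 ± 11.6 CPM, so MEIS1 and MEIS2 differed in the glial class in which each was high. After subtraction of free RNA the level in oligodendrocyte-like nuclei was 107 to 211 CPM. ZIC1 was at 360 and 278 CPM in fibroblasts of the control female and male and at 295 and 318 CPM in those of the LPS-exposed female and male, within the range of the granule stages. PAX6 was at 163 ± 83.8 CPM in astrocytes and 154 ± 68.3 CPM in Bergmann glia, and at 27.5 ± 19.6 CPM in Purkinje-like nuclei. After subtraction of free RNA it was at 67.0 to 227 CPM in astrocytes, 76.0 to 202 CPM in Bergmann glia and 0 in the Purkinje-like nuclei of all 4 libraries. PAX2+ interneurons, precursors of inhibitory neurons, had 641 ± 141 CPM of MEIS1, 202 ± 39.4 CPM of ZIC1 and 6.56 ± 2.72 CPM of ZIC2. They also had 120 ± 47.6 CPM of NEUROD1, and free RNA was estimated at 13.5 to 33.9% of their UMIs. After its subtraction ZIC2 was at 3.28 to 9.28 CPM. The part of granule cell RNA in these levels was not tested.

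**Figure D3:**
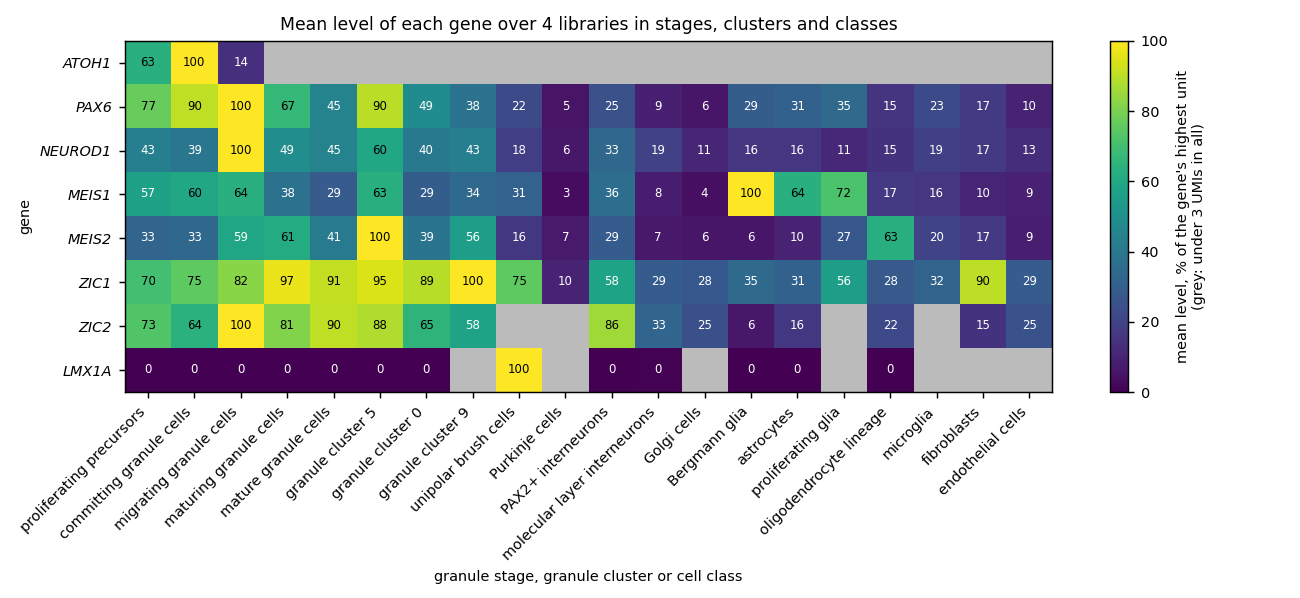
Mean level over 4 libraries of each gene (rows) in each granule stage, cluster and class (columns), as a percentage of the gene's highest column, with cells resting on fewer than 3 UMIs in grey. LMX1A was bright in unipolar brush cells, MEIS1 in Bergmann glia (1766 CPM), ZIC1 was nearly as high in fibroblasts (313 CPM) as in mature granule cells (315 CPM), and PAX6 and NEUROD1 were highest in migrating cells.

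RNA in empty droplets was measured in the same units, since it reaches every barcode. These were the barcodes next in UMI number after 3 times as many as the nuclei, with a median of 196 to 496 UMIs, and so another set than the barcodes with at most 100 UMIs whose profile was subtracted. NEUROD1 was at 1055 CPM in the empty droplets of the control female and 1267 CPM in those of the LPS-exposed female, against 200.3 and 221 CPM in their nuclei. In the males it was at 83.8 and 301 CPM in droplets and at 82.2 and 139 CPM in nuclei. ZIC1 behaved alike, with 985 and 1180 CPM in droplets and 272 and 273 CPM in nuclei of the females. In the droplets of the females both genes were more than 3-fold above the nuclei, while MEIS1 was not (699.9 and 432 CPM in droplets, 973 and 944 CPM in nuclei). After subtraction of free RNA, estimated at 17.2 to 27.8% of the UMIs of fibroblasts, NEUROD1 was at 0 in fibroblasts and oligodendrocyte-like nuclei of all 4 libraries and at most 5.79 CPM in Golgi-like and 5.69 CPM in Purkinje-like nuclei. ZIC1 was then at 153 to 300.3 CPM in fibroblasts and at 0 in Purkinje-like nuclei. The subtracted profile had ZIC1 at 595 and 648 CPM in the control and LPS-exposed females, below their droplets. In the control and LPS-exposed males it had 222 and 447 CPM, above the 174 and 361 CPM of their droplets. The droplet profile was not subtracted, and it would take more ZIC1 from the fibroblasts of the females. NEUROD1 in migrating cells was at 218 to 511 CPM after subtraction. ZIC2 was at 10.1 and 8.35 CPM in the droplets of the females against 4.52 and 4.58 CPM in their nuclei, and at 4.72 and 3.101 CPM in those of the males against 5.02 and 4.86 CPM. LMX1A was at 0.59 to 11.4 CPM in droplets. PAX6 was at 352 and 402 CPM in droplets of the control and LPS-exposed females and 299 and 233 CPM in the males. Nuclei had 198 and 199.6 CPM of PAX6 in the females and 409 and 339 CPM in the males. Barcodes with at most 100 UMIs had 289 and 298 CPM of it in the females and 429 and 349 CPM in the males.

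**Figure D4:**
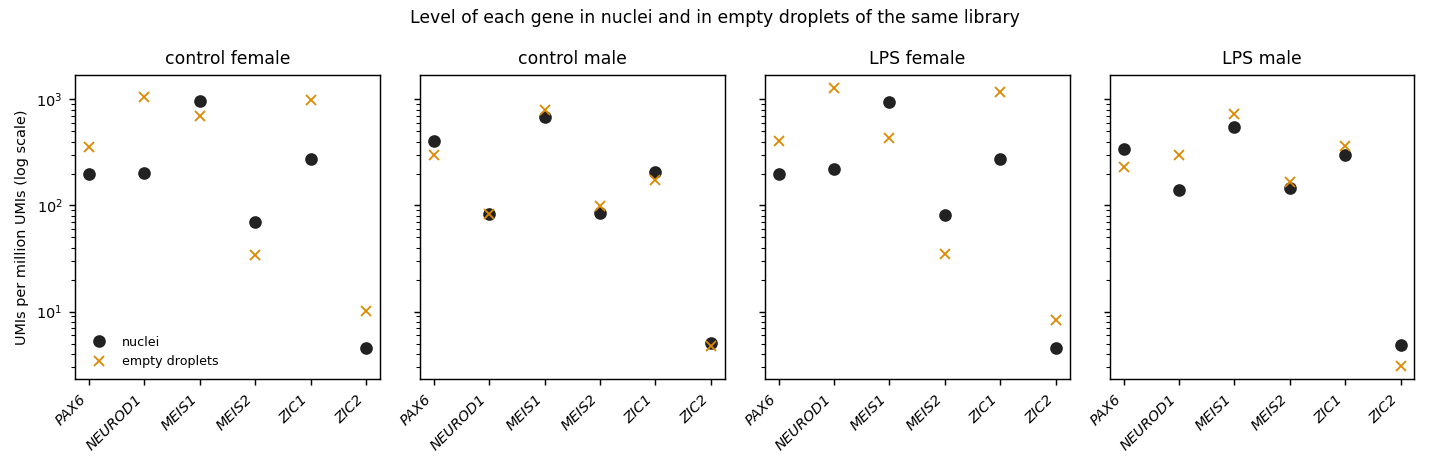
Level in CPM (vertical axis, log scale) of 6 of the genes (horizontal axis) in nuclei (black circles) and in empty droplets (orange crosses), with 1 panel per library. In both females NEUROD1 (1055 and 1267) and ZIC1 (985 and 1180) of the droplets lay well above the nuclei.

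The members resembled different genes across the 20 stages, clusters and classes with at least 50 nuclei. Pearson's r of the mean log2(CPM + 1) was taken against 11375 genes, and is a description, since the points share libraries and clusters and differ in depth. PAX6 was most like DNAJC24 (r = 0.965), a gene of diphthamide synthesis that lies 3 protein-coding genes away from it in the RefSeq annotation of assembly T2T-MMU8v2.0. Its male and female levels did not split like those of PAX6, with 198 CPM in the control female and 163 CPM in the control male over the granule lineage. ZIC1 was most like ZIC4 (0.957) and then ZIC5 (0.901). NEUROD1 was most like SSTR2 (0.911), a somatostatin receptor, and ZIC2 (0.904), and MEIS2 like CDK8 (0.960), ST18 (0.950) and GRIK2 (0.922). MEIS1 was nearest to GPM6A (0.884), a membrane glycoprotein of neurons and glia. For ATOH1 (DMPK, 0.893) few UMIs underlay the pattern, and ZIC2 had 555 in all. Free RNA was not subtracted before r was taken, and its part in r was not tested. LMX1A was nearest to SULF1 (0.867), RPH3A (0.843) and CHST8 (0.840), of which RPH3A was used to name the unipolar brush-like cluster. Among the members themselves the highest pairs were NEUROD1 with ZIC2 (0.904), PAX6 with MEIS1 (0.868) and PAX6 with NEUROD1 (0.844), and LMX1A had r between −0.05 and 0.36 with the others.

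LPS-exposed and control fetuses were compared by edgeR's quasi-likelihood test on the UMIs summed per fetus, with p-values adjusted by Benjamini-Hochberg over all genes of a fit and a call at an adjusted p under 0.1 and a log2 difference over 0.25 in size. The comparison asks whether the factors of this lineage differed between the exposed and control fetuses within a stage or class. Both controls were at 130 days of gestation and the LPS-exposed fetuses at 131 and 133 days. Exposure and gestational age therefore cannot be told apart here. There were 17 fits, for the granule lineage, 7 stages and clusters, the unipolar brush-like nuclei and 8 other classes. Of the tests of members 92 passed the filter on low counts and 44 did not. None of the 92 was called, and the percentage of all genes called was 0 in each fit. At an unadjusted p under 0.05 there were 2 members, and DESeq2 called 0 members. The 2 lay in the unipolar brush-like and fibroblast fits, for which the share of all genes at that p is not given here. Other genes of these fits had a lower unadjusted p by edgeR, such as GABRB2 in the first (0.00315) and IGFBP5 in the second (0.00175).

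In the granule lineage PAX6 was at 242 and 535 CPM in the control female and male and at 246 and 403 CPM in the LPS-exposed female and male. The log2 difference of LPS-exposed from control was −0.23 (SE 0.46), and the groups overlapped. NEUROD1 was at 241 and 108 CPM in the controls and 271 and 147 CPM in the LPS-exposed fetuses (0.23, SE 0.56). MEIS1 was at 939 and 699.8 CPM in the controls and 947 and 552 CPM in the LPS-exposed (−0.14, SE 0.42). For these genes the females lay close together, with log2 differences of LPS-exposed from control of 0.02, 0.17 and 0.01. The males lay further apart, at −0.41, 0.45 and −0.34. The difference between the female and the male libraries was wider than that within either pair. MEIS2 (0.41, SE 0.35), ZIC1 (0.22, SE 0.30), ZIC2 (−0.11, SE 0.42), ATOH1 (0.13, SE 1.13) and LMX1A (0.81, SE 0.80) were likewise not called, each with an adjusted p of 1.00 in edgeR's test. After subtraction of free RNA the LMX1A difference was −0.07, with the LPS-exposed male at 0.189 CPM in place of 2.85. Without the LPS-exposed male, which had the highest MEIS2 level, the MEIS2 difference was 0.02. Of 14905 genes tested in the granule lineage, 27 had an unadjusted p under 0.05 by edgeR and 59 by DESeq2. In simulated data with the spread of these libraries, 1.08% of genes changed 4-fold were called in the granule lineage, so this fit, which has no term for sex, could not resolve changes of that size. With sex as a block edgeR called 0 members, and of all genes 5 over the stages and clusters and 29 over the other classes.

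Both members with an unadjusted p under 0.05 lay outside the granule stages. MEIS1 in unipolar brush-like nuclei was at 913 CPM in the control female, 727 in the control male, 141 in the LPS-exposed female and 439 in the LPS-exposed male. Both LPS-exposed fetuses lay below both controls, with a log2 difference of −1.42 (SE 0.59, unadjusted p = 0.0306 and adjusted p = 1.00 by edgeR). The values rested on 166, 17, 8 and 73 UMIs in 21, 8, 9 and 36 nuclei. Without the LPS-exposed female the difference was −0.95, and without the LPS-exposed male −2.47. Markers of granule cells were read in the same nuclei. The 12 granule lineage markers summed to 14214 and 13171 CPM in the control female and male and to 16849.5 and 14971 CPM in the LPS-exposed female and male, so that both LPS-exposed sums were higher, while 4 of the 12 markers were lower and 0 higher in both LPS-exposed fetuses. The 8 maturing markers (3549 and 2822 against 5616 and 4119 CPM, 1 marker higher and 2 lower) and the 8 migrating markers (6961 and 7997 against 9343 and 8748 CPM, 2 higher and 2 lower) also summed higher in both. The sums of the 8 mature markers (7214 and 3507 against 6269.98 and 7569.75 CPM, 3 higher and 0 lower), of the 7 committing markers (1255 and 513 against 883 and 824 CPM, 1 higher and 2 lower) and of the 9 markers of proliferating precursors (171 and 42.8 against 88.3 and 78.2 CPM, 2 higher and 1 lower) overlapped. Among the genes with the lowest p of this fit were the mature marker GABRB2 (log2 3.39) and the migrating markers EBF3 (−3.73) and RASGEF1B (−1.65). These 3 were named after their values were seen, each had an adjusted p of 1.00 by edgeR, and their part in the MEIS1 difference was not tested. In the fit of this cluster 11% of all genes had both LPS-exposed fetuses above both controls and 11.6% had both below.

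MEIS2 in fibroblasts was at 14.4 CPM in the control female, 15.8 in the control male, 33.3 in the LPS-exposed female and 94.4 in the LPS-exposed male. Both LPS-exposed fetuses lay above both controls, with a log2 difference of 1.85 (SE 0.65, unadjusted p = 0.0228 and adjusted p = 1.00 by edgeR). The LPS-exposed male had 11 UMIs of MEIS2 in 33 nuclei, and without it the difference was 1.15. The 8 markers of mature granule cells summed to 1531 and 1404 CPM in the fibroblasts of the control female and male and to 2421 and 5598 CPM in those of the LPS-exposed female and male. Of these 8 markers 4 were higher in both LPS-exposed fetuses, including GABRB2 (log2 2.46). The 12 granule lineage markers summed to 4238, 2865, 3840 and 4568 CPM in the same order, the 8 maturing markers to 861, 674, 1195 and 541 CPM, the 8 migrating markers to 766, 937, 1215 and 884 CPM and the 7 committing markers to 3014, 2622, 2738 and 2747 CPM, all of which overlapped between the groups, and the 9 markers of proliferating precursors were lower in the LPS-exposed fetuses (431, 448, 379 and 318 CPM). In the same fit GABRB2 and NELL1 (4.35), a leading gene of granule cluster 0 and also on the unipolar brush cell list, had an adjusted p of 1.00 by edgeR, and they were named after their values were seen. MEIS2 itself was at 126 CPM in the free RNA of the LPS-exposed male against 48.1 to 74.4 CPM in that of the other libraries, and after subtraction of free RNA the fibroblast difference was 3.29. A fibroblast sub-cluster of 95 nuclei held 49.5% called doublets. It made up 25 of 129 and 20 of 194 fibroblasts of the control female and male. In the LPS-exposed female and male it made up 41 of 142 and 9 of 33, a larger share in both. The part of granule cell RNA and doublets in the MEIS2 difference was not tested. Over all genes of the fibroblast fit 14.1% lay above and 14% below in both LPS-exposed fetuses. LMX1A in unipolar brush-like nuclei was also higher in both LPS-exposed fetuses than in both controls, by 0.56 on the log2 scale (SE 0.54, adjusted p = 1.00 by edgeR).

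Of the 92 tests, 19 had groups that did not overlap, 16 with both LPS-exposed fetuses above and 3 with both below. Over all genes, the shares with both LPS-exposed fetuses above and with both below were 7.25 and 5.04% in the granule lineage, 7.83 and 8.4% in proliferating precursors, 8.47 and 8.94% in committing, 9.07 and 7.46% in migrating, 9.24 and 6.56% in maturing and 8.02 and 6.61% in mature granule cells. They were 8.42 and 5.2% in cluster 0 and 8.58 and 7.42% in cluster 5. Outside the lineage they were 9.98 and 10.8% in PAX2+ interneurons, 10.2 and 7.18% in molecular layer interneurons, 9.4 and 7.68% in Bergmann glia, 9.9 and 8.92% in astrocytes, 11.8 and 9.48% in the oligodendrocyte lineage, 8.85 and 14.8% in microglia and 9.63 and 13.4% in endothelial cells. With 2 fetuses against 2 the smallest p of an exact two-sided permutation test is 0.333. The tests were not independent, since the granule lineage holds the nuclei of its stages and clusters. The 16 include NEUROD1 in the oligodendrocyte lineage, where none was left after subtraction of free RNA. They also include LMX1A in the granule lineage, whose difference changed sign after that subtraction. LMX1A in unipolar brush-like nuclei, also among the 16, overlapped between the groups after thinning. MEIS2 and ZIC1 accounted for 5 each of the 16. For ZIC1 these included the granule lineage and, within it, proliferating precursors and cluster 0. For MEIS2 these included maturing granule cells, at 113 and 132 CPM in the controls and 133 and 206 CPM in the LPS-exposed fetuses, and the oligodendrocyte lineage. In that lineage a sub-cluster led by MOBP and MOG held 58 of 148 nuclei of the LPS-exposed male. It held 13 of 115 in the control female, 5 of 87 in the control male and 9 of 79 in the LPS-exposed female. Its part in the MEIS2 difference was not tested. For ZIC2 the LPS-exposed fetuses were below in proliferating precursors, at 4.75 and 4.11 CPM against 6.34 and 7.04 CPM in the controls, and in migrating cells, from 38 and 79 UMIs in all.

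**Figure D5:**
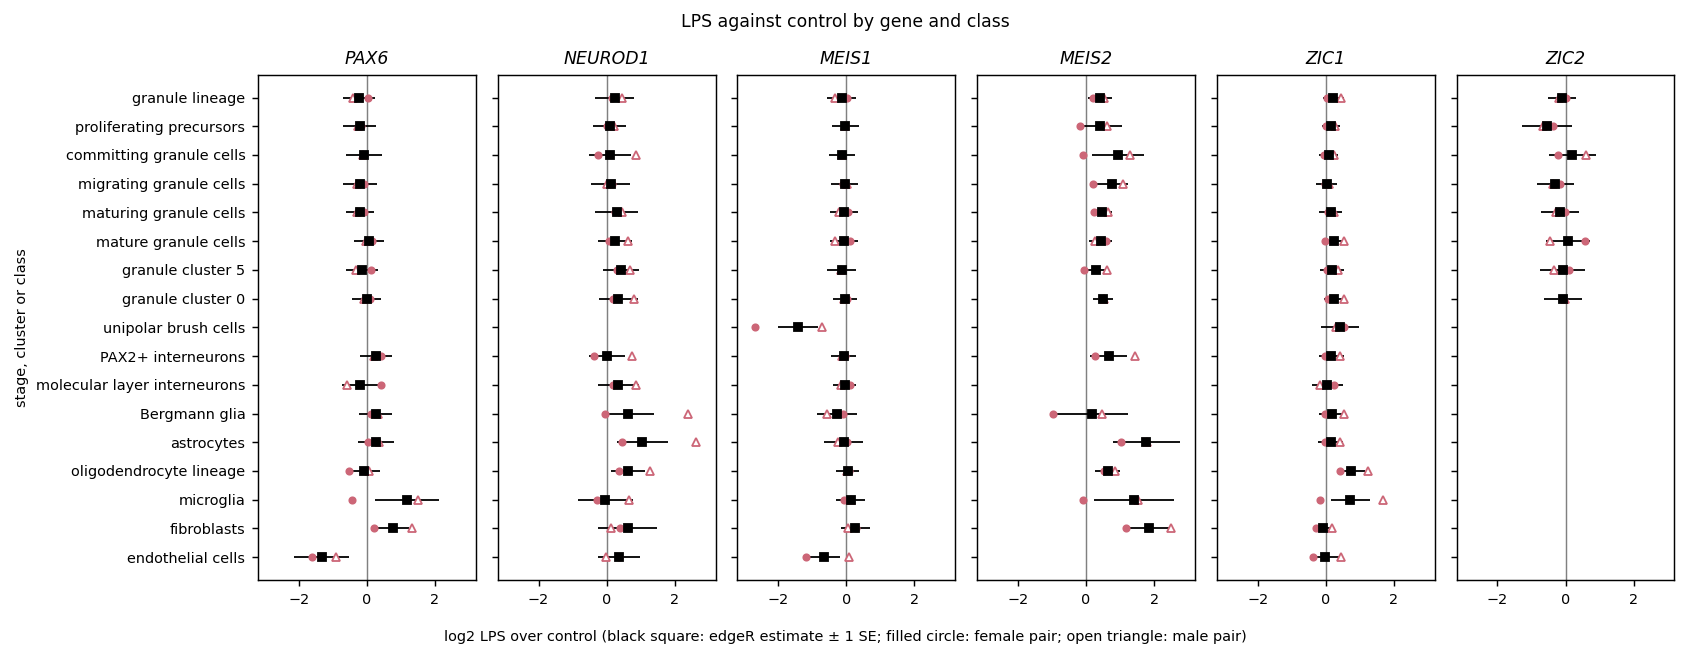
Log2 difference of LPS-exposed from control (horizontal axis) for 6 of the genes (panels) in each fit in which the gene passed the filter (vertical axis), with the edgeR estimate as a black square, bars of 1 SE, and the female and male pairs as a filled circle and an open triangle. Over the 8 genes 70 of the 92 tests were within 1 SE of 0. For MEIS2 the 14 estimates, which come from the same 4 fetuses, were above 0, with the male pair above 0 in 14 and the female pair below 0 in 5. The tests with an unadjusted p under 0.05 were MEIS1 in unipolar brush cells (−1.42) and MEIS2 in fibroblasts (1.85).

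The related genes gave 249 tests, of which 0 were called and 1 had an unadjusted p under 0.05 (GLI2 in fibroblasts, −1.49, unadjusted p = 0.0263 by edgeR). Their median log2 difference in the granule lineage was −0.06, against 0.01 over all genes.

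Several members, by contrast, separated the libraries of the females from those of the males. PAX6 was higher in both males than in both females in 7 of 7 granule stages and clusters, with a ratio of male to female of 2.03 to 2.34 in the controls and 1.73 to 2.19 in the LPS-exposed fetuses. NEUROD1 was lower in both males in 7 of 7, with ratios of 0.300 to 0.4996 in the controls and 0.447 to 0.745 in the LPS-exposed. MEIS1 was lower in both males in 7 of 7, with ratios of 0.628 to 0.895 and 0.661 to 0.798. MEIS2 was higher in both males in 4 of 7 and ZIC1 lower in both males in 4 of 7. Such a split was common among all genes. The shares higher and lower in both males were 37.6 and 30.6% in the granule lineage, 36.3 and 29.5% in proliferating precursors, 34.9 and 29.6% in committing, 37 and 29.3% in migrating, 42 and 24.8% in maturing and 39.5 and 21.7% in mature granule cells, 43.1 and 25.4% in cluster 0 and 39.5 and 25.9% in cluster 5. Library quality split in the same way as sex. Mitochondrial UMIs averaged 0.264 and 0.212% in the nuclei of the control and LPS-exposed females and 0.0214 and 0.0318% in those of the males. Nuclei held 73.9% of the UMIs in both females and 58.7 and 38.7% in the males. The part of depth, free RNA and the handling of each library in these differences was not tested, since depth and these values split in the same way.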

How the data were processed

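Nuclear RNA of 4 fetal rhesus cerebella was captured with 10x Genomics 3' chemistry, and the authors mapped the reads to Mmul_8.0.1 with introns included. The deposited values are raw UMI counts per gene and barcode for every barcode, with no removal of ambient RNA; the file headers name Cell Ranger 4. All other values were computed here. Nuclei (500 genes or more, mitochondrial UMIs not above 5%) were integrated by Seurat 5.3.0 in R 4.3.3 (2000 variable features without the members, 30 dimensions, resolution 0.5), and clusters and their sub-clusters took the class with the highest mean log2 fold of its markers if at least 3 markers were raised. Clusters with over 50% doublets, of low depth with no own marker in the lead, or led by markers of another class stayed without a class. Marker lists came from the study and from general knowledge. Groups and sexes were taken from the deposited labels. UMIs were summed per class and fetus and tested with edgeR 4.0.16 (filterByExpr, TMM, quasi-likelihood, Benjamini-Hochberg). DESeq2 1.42.0 was the other tool. Differences between stages were log2(CPM + 1) within a fetus, over genes with at least 50 UMIs, and were not tested. Scrublet in scanpy 1.11.5 called doublets. Its own threshold marked 0.0256% of the LPS-exposed male, so that library took the median of the thresholds set for the others. The free RNA profile came from barcodes with at most 100 UMIs and was subtracted by class. Limits for 0 counts are 3 UMIs, and exact (Clopper-Pearson) 95% intervals of shares were computed. Both cover counting error only. The edgeR step was tested on simulated data. In the unipolar brush-like nuclei it called 11.2% of genes changed 4-fold with the spread of these libraries (2836 genes tested).

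The named genes are all 10 members, a list of 32 related genes and, for each member, the 3 genes most like it over classes. The members and lists were chosen with earlier results of these data known. Alternatives were other normalization, filter, tool, doublet, depth and free RNA settings, sex as a block, and leaving out each library.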

Additional observations from a re-analysis of the deposited data

Results flagged for a closer look

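Of the 92 tests of members that passed the filter on low counts, 7 had a log2 difference of LPS-exposed from control with opposite signs in the female and the male pair and over 0.25 in size in each. The difference between the pairs was not tested, since each pair holds 1 fetus per group. The share of all genes with this pattern was not counted, so the 7 are a list and not a result about the members. ZIC2 in mature granule cells was at 0.57 in the female pair and −0.44 in the male pair (male minus female −1.01). PAX6 in molecular layer interneurons was at 0.41 and −0.59 (−0.99), and in microglia at −0.45 and 1.50 (1.95). NEUROD1 in PAX2+ interneurons was at −0.38 and 0.75 (1.13), and in microglia at −0.29 and 0.66 (0.96). MEIS2 in Bergmann glia was at −0.98 and 0.45 (1.43), and ZIC1 in endothelial cells at −0.39 and 0.44 (0.83). The MEIS2 of Bergmann glia rested on 62 UMIs in all, with the LPS-exposed female at 2.58 CPM. The LPS-exposed male had 43 microglia, with free RNA estimated at 36.0% of their UMIs. Groups of 2 libraries were too small to test for a single library far from the others.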

How the results depend on the processing

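No member was called under any of the 11 alternatives, and the lowest adjusted p of a member was 0.192, in edgeR's test without the LPS-exposed female, where the lone LPS-exposed library is assumed to vary like the controls. The labels give no replicate numbers, and the fetuses were paired only by sex, which as a block called 0 members. Over all genes the counts called, 0 as reported, did move. Over the 7 stages and clusters they came to 42 without a filter, 4 by DESeq2, 5 with the sex block and 2 to 77 when 1 library was left out. In unipolar brush-like nuclei they came to 1 after subtraction of free RNA and 0 to 3 when 1 library was left out, and in the other classes to 63 without a filter, 6 by DESeq2, 29 with the sex block and 43 to 221 without 1 library. The cause was not tested. In the granule lineage, leaving out 1 library gave log2 differences of −1.36 to 1.37 for ATOH1, −0.64 to 0.37 for PAX6, −0.28 to 1.04 for NEUROD1, −0.59 to 0.20 for MEIS1 and −0.20 to 0.015 for ZIC2, and LMX1A was at −0.074 after subtraction of free RNA. The sign changed for 21 to 36 of the member tests without 1 library and for 0 to 13 under the other settings. Of the member values between stages or classes, 4 passed the 2-fold rule as reported, 7 after subtraction of free RNA and 4 to 6 without 1 library. The depth of the males limits ATOH1, ZIC2 and LMX1A, and the 74 unipolar brush-like nuclei limit every value in that class.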
